A study of Boechera gunnisoniana with 7 samples.

Results

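The genes examined encode subunits of cohesin and condensin and a cohesin loader. They were taken from a list of 10 *Arabidopsis* identifiers, and all 10 are among the 21428 genes with values. The list holds 2 SMC subunits of cohesin (*SMC1*, *AT3G54670*, and *SMC3*, *AT2G27170*) and 4 kleisins (*SYN1/REC8*, *AT5G05490*, *SYN2*, *AT5G40840*, *SYN3*, *AT3G59550*, and *SYN4*, *AT5G16270*). It further holds the loader *SCC2* (*AT5G15540*) and 3 SMC subunits of condensin (*SMC2A*, *AT5G62410*, *SMC2B*, *AT3G47460*, and *SMC4*, *AT5G48600*). By their identifiers, 1 of the genes lies on *Arabidopsis* chromosome 2, 3 lie on chromosome 3 and 6 on chromosome 5. Their coordinates were not used here.

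All samples came from untreated plants of *Boechera gunnisoniana*, a triploid, pseudogamous obligate apomict that forms unreduced egg cells. Laser-assisted microdissection yielded 2 samples of the apomictic initial cell (AIC), the cell that replaces the megaspore mother cell, and 2 of the sporophytic nucellus tissue around it. From the mature embryo sac, in emasculated flowers, 1 sample was taken of each of its cell types (egg cell, synergid cells and central cell). Every sample was a pool of sections, the AIC samples may hold some nucellus and the embryo sac samples some neighbouring cells, and the amplified RNA was hybridized to the ATH1 array, whose probes were designed for *Arabidopsis*.

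Cohesin is a ring of SMC1, SMC3 and a kleisin that holds sister chromatids together from replication until anaphase, and SCC2 is part of the complex that loads it onto chromatin. In meiosis the kleisin is REC8. Cohesion that persists around the centromeres keeps sister chromatids together through the first division, and in *Arabidopsis* the loss of *REC8* combined with mutations in *SPO11-1* and *OSD1* turns meiosis into a division that resembles mitosis. Condensin is built on a dimer of SMC2 and SMC4 and compacts chromosomes for division.

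Values are log2-scale expression values per gene and array. A value was called above the presence cutoff when it exceeded the level that separates the genes called present by the study, at a p value of 0.02, from the others. The cutoff was between 4.94 and 5.07 on the AIC, nucellus and egg cell arrays, 5.59 for the central cell and 5.29 for the synergid cells. The latter 2 arrays stood apart. Their hybridization controls, transcripts added in fixed amounts, averaged 11.4 and 12.5 over 18 features, against 9.25 to 10.7 on the other 5 arrays. Among the 12878 genes above the cutoff on no array, the median difference from the AIC mean was 0.155 for the central cell, 0.0885 for the synergid cells and -0.0029 for the egg cell. Of the markers for the labels, the synergid genes *MYB98* and *DD31* had their highest values on the synergid cell array (6.61 and 4.84), and 3 of 4 central cell markers had theirs on the central cell array. Of these, *DD31* and 2 of the 3 central cell markers were under the cutoff there, and *AGL80*, the other one, was above it on 5 arrays. Neither of the 2 egg cell markers with values was above the cutoff on any array. Both were highest on the synergid cell array, and *EC1.5* was lowest in the egg cell (2.74). None of 4 nucellus and young ovule markers was above the cutoff on any array, and *WUS* and *BEL1* among them were also highest in the synergid cells. A value is compared here between arrays for the same gene only, because probes of different genes differ in affinity, all the more so across species. Values under the cutoff do not show that a transcript was absent.

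Of the 10 genes, 6 exceeded the presence cutoff on at least 1 of the 7 arrays, as did 39.9% of all genes. *SMC1*, *SYN1/REC8*, *SMC2A*, *SMC2B*, *SMC4* and *SCC2* made up this group. *SMC3*, *SYN2*, *SYN3* and *SYN4* were above it on none, like 60.1% of all genes, and none of the 10 was above it on all 7 arrays, against 9.55% of all genes. The egg cell array had the most, 4 of 10 (*SMC1*, *SMC2A*, *SMC4* and *SCC2*, where 27.2% of all genes were above the cutoff). AIC array 1 had 3 of 10 (*SMC1*, *SYN1/REC8* and *SCC2*, background 26.5%) and AIC array 2 had 2 of 10 (*SMC1* and *SMC4*, background 26.1%). Each nucellus array had 1, *SMC4* on array 1 (background 26.6%) and *SMC2A* on array 2 (background 24.4%). The central cell array had *SMC4* (background 13.9%), and the synergid cell array had *SMC2B* and *SMC4* (background 19.4%). *SMC1* was the only one of the 10 above the cutoff on both AIC arrays, where 21.7% of all genes were, and 0 of 10 were so on both nucellus arrays, where 20.2% of all genes were. At least 1 AIC array had 4 of 10 above it (background 30.9%), and at least 1 nucellus array had 2 of 10 (background 30.8%). *SYN1/REC8* and *SMC2B* were above it on exactly 1 array, as were 9.04% of all genes. These shares rest on 10 genes and were read as a description only.

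**Figure D1:**
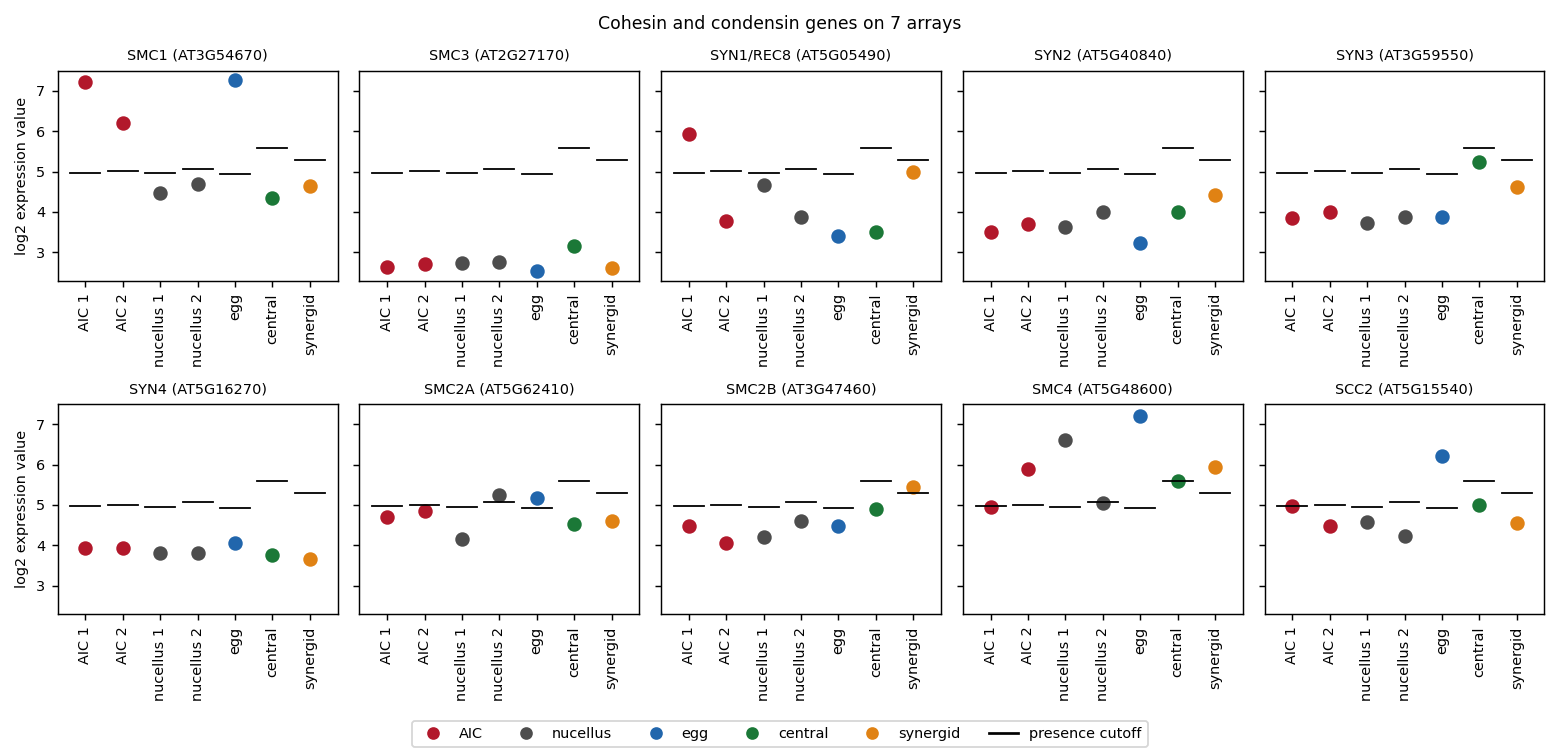
Log2 expression value (y axis) of each of the 10 genes on each array (x axis), with 1 point per array coloured by cell type and a black line at the presence cutoff of that array. *SMC1* lies above the cutoff on both AIC arrays (7.21 and 6.21) and on the egg cell array (7.27) only, whereas *SMC3*, *SYN2*, *SYN3* and *SYN4* lie below it on every array.

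*SMC1*, an invariant subunit of the cohesin ring, had log2 values of 7.21 and 6.21 in the AIC and of 7.27 in the egg cell. Its values were 4.48 and 4.69 on the nucellus arrays, 4.34 in the central cell and 4.65 in the synergid cells. The AIC and egg cell arrays were thus high and the other 4 low, without overlap, and the distance from the cutoff was 1.198 to 2.33 for the 3 high values and -0.38 to -1.25 for the 4 low ones. Being above the cutoff on both AIC arrays and the egg cell array and on no other array applied to 0.336% of all genes (72), and being above it on both AIC arrays and neither nucellus array to 0.887%. Both patterns were counted after the values of *SMC1* were seen. With the less strict cutoff set at a p value of 0.05, which was 4.68 on nucellus array 2, the *SMC1* value on that array was above it as well, by under 0.05. The mean was 6.71 ± 0.71 (SD, n = 2) in the AIC and 4.59 ± 0.15 (SD, n = 2) in the nucellus. As both nucellus values were under the cutoff, only a bound can be given for the fold. Set against the lowest value above the cutoff on each nucellus array, the AIC mean of *SMC1* was at least 3.23-fold higher (log2 1.69). This bound concerns the low values only and leaves out the spread between arrays. The 95% interval of the measured log2 difference reached down to 0.87. The measured log2 difference was 2.12 (SE 0.41, 95% interval 0.87 to 3.38). With limma it had an unadjusted p of 0.0115 and an adjusted p of 0.938, so it did not pass the threshold of 0.05. Both AIC values were above both nucellus values for *SMC1* and *SYN4*, as for 12.7% of all genes, and counting either direction the pairs did not overlap for 3 of 10 genes against 27% of all genes. As each sample is a pool, fewer cells with a transcript and less transcript per cell cannot be told apart, and the part of nucellus tissue within the AIC samples was not tested.

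In the order of the cell types, *SMC1* was highest in the egg cell, followed by the AIC, the synergid cells, the nucellus and the central cell. The step from the AIC down to the synergid cells was 2.06, larger than the 1.01 by which the AIC arrays differed, whereas the other neighbours in this order differed by less than that. Against the AIC, limma gave a log2 difference of -2.06 for the synergid cells (SE 0.51, adjusted p = 0.272) and of -2.37 for the central cell (SE 0.51, adjusted p = 0.185). Both cell types were under the cutoff. With the bound taken in the same way, *SMC1* was at least 2.67-fold lower in the synergid cells than the AIC mean. For the central cell it was at least 2.18-fold lower. These bounds again leave out the spread between arrays. The fit was also run on the 6612 genes that exceeded the cutoff on 2 or more arrays. Their median log2 difference from the AIC was -0.308 for the central cell and -0.241 for the synergid cells. In the central cell 1756 of them were lower by at least 1 and 292 higher. In the synergid cells 1210 were lower and 396 higher. The part of this shift in the *SMC1* values was not tested. For the egg cell, the *SMC1* difference from the AIC was 0.56 (SE 0.51, 95% interval -0.98 to 2.09, limma adjusted p = 0.834). It was 1.06 without AIC array 1 and 0.053 without AIC array 2. Measured as a rank among all genes of the same array, which does not depend on the spread of values on that array, *SMC1* was at the 94.5 and 89.6 percentiles in the AIC and at 95.2 in the egg cell. On the other 4 arrays it was between 55.8 and 68.2.

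*SMC3*, the partner of SMC1 in the ring, did not have this pattern. Its log2 values were 2.63 and 2.70 in the AIC, 2.74 and 2.77 in the nucellus, 2.54 in the egg cell, 3.15 in the central cell and 2.60 in the synergid cells. The distance from the cutoff was between -2.22 and -2.69 on the 7 arrays, and its rank did not exceed the 11.4 percentile of an array. The difference between the AIC and the nucellus was -0.087 (SE 0.10, limma adjusted p = 0.938), with both AIC arrays below both nucellus arrays, as for 14.3% of all genes. The highest value, on the central cell array, was 0.39 above the nucellus mean. On that array 47.9% of the genes never above the cutoff likewise exceeded all 4 of their AIC and nucellus values, and the part of this shift in the *SMC3* value was not tested. How well the *SMC3* probes match the *Boechera* transcript was not tested.

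*SYN1/REC8*, the meiotic kleisin, had 5.94 on AIC array 1 and 3.78 on AIC array 2. On the nucellus arrays it had 4.66 and 3.88, in the egg cell 3.40, in the central cell 3.51 and in the synergid cells 4.98. Only the value on AIC array 1 was above the cutoff, by 0.97, and the other AIC array was 1.22 below it. The AIC arrays differed by 2.16, a gap that only 1.26% of all genes reached or exceeded, and both nucellus values fell between them. The AIC mean was 4.86 ± 1.53 (SD, n = 2) against 4.27 ± 0.55 (SD, n = 2) in the nucellus, a log2 difference of 0.60 (SE 0.90, 95% interval -2.14 to 3.33, limma adjusted p = 0.939). Without AIC array 1 the difference was -0.48, and without AIC array 2 it was 1.67, so the sign depended on which AIC array was used. No neighbouring cell types in the order synergid cells, AIC, nucellus, central cell and egg cell differed by more than the AIC pair did. The values of the synergid cells and of nucellus array 1, both under the cutoff, were above the less strict one set at a p value of 0.05.

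**Figure D2:**
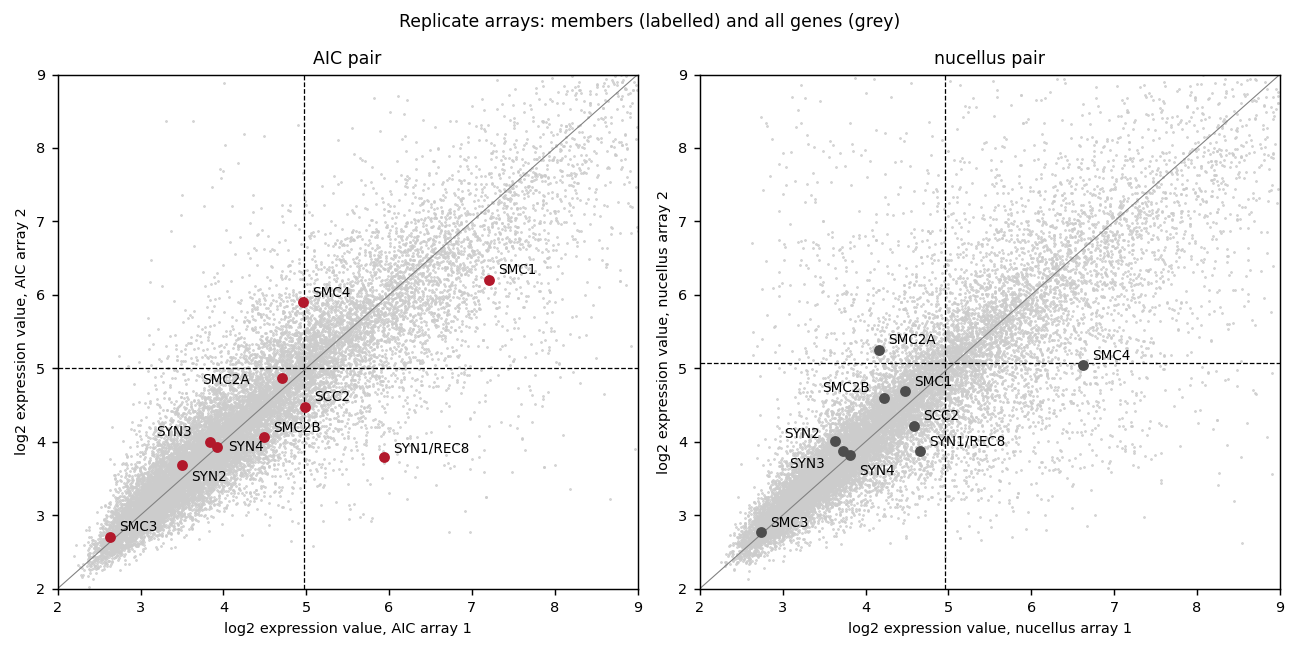
Log2 expression value on array 2 (y axis) against array 1 (x axis) for the AIC pair (left) and the nucellus pair (right), with the 10 genes labelled, all other genes in grey, the presence cutoffs as dashed lines and equality as a solid line. Axes run from 2 to 9, which leaves 289 genes (AIC) and 364 genes (nucellus) outside. *SYN1/REC8* departs most from equality in the AIC pair (gap 2.16) and *SMC4* in the nucellus pair (gap 1.58).

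The other 3 kleisins are related to RAD21, the kleisin of mitotic cohesin. *SYN2*, which in *Arabidopsis* has a role in the repair of DNA breaks, had values of 3.50 and 3.69 in the AIC, 3.63 and 4.003 in the nucellus, 3.23 in the egg cell, 4.004 in the central cell and 4.42 in the synergid cells. Each was below the cutoff, and AIC and nucellus overlapped. On the central and synergid cell arrays, 47.9% and 40.2% of the genes never above the cutoff exceeded all 4 of their AIC and nucellus values. The part of this shift in the *SYN2* values was not tested. The synergid value was the highest and stood 0.42 above the central cell, slightly more than the larger gap within a pair (0.38). Relative to the AIC it was 0.83 higher (SE 0.24, limma adjusted p = 0.305).

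*SYN3*, needed for the development of gametophytes in *Arabidopsis*, had a narrow range on the AIC (3.84 and 3.9999), nucellus (3.73 and 3.87) and egg cell (3.88) arrays. It was 5.25 in the central cell and 4.61 in the synergid cells, above each of the other 5 values. The steps from the central cell to the synergid cells (0.64) and on to the AIC (0.68) exceeded the larger gap within a pair of 0.16. The measured log2 difference between the central cell and the AIC was 1.33 (SE 0.16, 95% interval 0.85 to 1.81), with an unadjusted p of 0.00253 and an adjusted p of 0.153 in limma. For the synergid cells the difference was 0.68 (SE 0.16, limma adjusted p = 0.269), and over all 5 cell types the F test had an unadjusted p of 0.00778 and an adjusted p of 0.235. By rank, *SYN3* was at the 80.1 percentile on the central cell array and between 40.8 and 49.1 on the AIC, nucellus and egg cell arrays. All values were below the cutoff, so these differences lie between levels not above background and give no fold. The central cell value, at a distance of -0.34, exceeded the less strict cutoff set at a p value of 0.05. The central and synergid cell arrays were those with raised low values, and the part of that shift in the result was not tested.

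*SYN4* lay between 3.65 in the synergid cells and 4.06 in the egg cell. Its values were 3.93 and 3.93 in the AIC, 3.81 and 3.81 in the nucellus and 3.77 in the central cell. Its nucellus values were identical, as for 5.18% of all genes, and the AIC values differed by 0.00059. All neighbouring cell types therefore differed by more than the gap within a pair, which for such values gives no measure of the spread between samples. The difference between the AIC and the nucellus was 0.11 (SE 0.10, limma adjusted p = 0.938).

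*SCC2*, whose product loads cohesin, had its highest value, 6.21, on the egg cell array. It had 4.99 and 4.48 in the AIC, 4.58 and 4.22 in the nucellus, 4.99 in the central cell and 4.55 in the synergid cells. The egg cell value was 1.27 above the cutoff and 1.22 above the next cell type, the central cell, against a larger gap within a pair of 0.51. The other neighbours in the order differed by less than that gap. Relative to the AIC mean of 4.73 ± 0.36 (SD, n = 2), the egg cell was 1.48 higher (SE 0.32, 95% interval 0.50 to 2.46), with an unadjusted p of 0.0161 and an adjusted p of 0.365 in limma. On AIC array 1 *SCC2* exceeded the cutoff by only 0.014, and on AIC array 2 it was 0.53 below it. The difference between the AIC and the nucellus (mean 4.40 ± 0.26, SD, n = 2) was 0.33 (SE 0.26, limma adjusted p = 0.938), with overlapping arrays.

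Of the condensin genes, *SMC4* was above the cutoff on the most arrays, 5 of 7. Its values were 4.96 and 5.90 in the AIC, 6.62 and 5.04 in the nucellus, 7.22 in the egg cell, 5.59 in the central cell and 5.94 in the synergid cells. On 3 arrays (AIC array 1, nucellus array 2 and the central cell) it was within 0.05 of the cutoff, and in the central cell it exceeded it by 0.0019. The replicate arrays differed widely, by 0.94 in the AIC and by 1.58 in the nucellus, and 8.76% and 5.28% of all genes had gaps as large. Hence the AIC (5.43 ± 0.67, SD, n = 2) could not be distinguished from the nucellus (5.83 ± 1.12, SD, n = 2), with a difference of -0.40 (SE 0.73, 95% interval -2.60 to 1.80, limma adjusted p = 0.943), which changed sign when AIC array 1 (0.072) or nucellus array 1 (0.39) was left out. The egg cell value was the highest, 1.28 above the synergid cells, but this step was smaller than the gap of the nucellus pair. Against the AIC the egg cell was 1.79 higher (SE 0.89, 95% interval -0.91 to 4.49, limma adjusted p = 0.656).

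*SMC2A* and *SMC2B* encode alternative forms of the partner of SMC4. *SMC2A* had values of 4.71 and 4.86 in the AIC, 4.16 and 5.25 in the nucellus, 5.16 in the egg cell, 4.53 in the central cell and 4.60 in the synergid cells. The nucellus arrays were the lowest and the highest of all 7, and no neighbouring cell types differed by more than their gap of 1.09. The log2 difference between the AIC and the nucellus was 0.078 (SE 0.44, limma adjusted p = 0.987), and without nucellus array 1 it was -0.47. *SMC2B* had values of 4.49 and 4.06 in the AIC, 4.22 and 4.60 in the nucellus, 4.48 in the egg cell, 4.91 in the central cell and 5.44 in the synergid cells. Only the synergid value was above the cutoff, by 0.15. The steps from the synergid cells to the central cell (0.53) and from there to the egg cell (0.43) exceeded the larger gap within a pair (0.42), the latter barely. Against the AIC the synergid cells were 1.17 higher (SE 0.30, 95% interval 0.26 to 2.08, limma adjusted p = 0.281). With both AIC values under the cutoff, the bound on the fold was at least 1.37-fold higher in the synergid cells. This bound leaves out the spread between arrays. The synergid value of *SMC2B* was under the stricter cutoff set at a p value of 0.01, which was 5.56 on that array. The central and synergid cell arrays were those with raised low values, and the part of that shift in the *SMC2B* values was not tested. Whether transcripts of *SMC2A* and *SMC2B* hybridized to each other's probes was not tested.

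**Figure D3:**
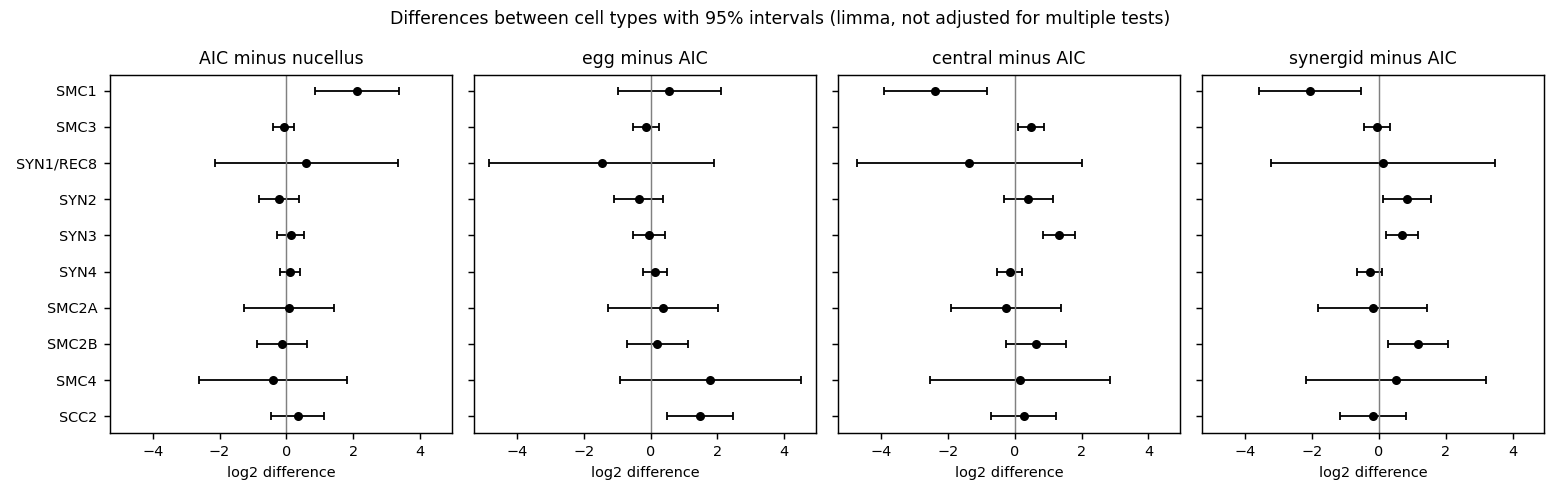
Log2 difference (x axis) of each gene (y axis) between the AIC and the nucellus and between each embryo sac cell type and the AIC, from limma on all 7 arrays, with bars for 95% intervals that are not adjusted for multiple tests. The interval of *SMC1* excludes 0 for the nucellus (0.87 to 3.38), the central cell and the synergid cells, and that of *SCC2* for the egg cell (0.50 to 2.46). Intervals of *SMC3* (central cell), *SYN3* (central and synergid cells), *SYN2* and *SMC2B* (synergid cells) also exclude 0, and the lowest adjusted p among the values plotted is 0.153 (*SYN3*, central cell, limma).

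To ask which of these differences exceed the spread between replicates, the cell types were compared in 1 limma fit over all genes, in which only the AIC and nucellus pairs inform the spread. At an adjusted p of 0.05, limma called 0 of 10 genes, and 0% of all genes, in each of the 6 comparisons. At an unadjusted p of 0.05 it picked 1 of 10 between the AIC and the nucellus (*SMC1*, background 3.82%) and 1 between the egg cell and the AIC (*SCC2*, background 10%). It picked 3 between the central cell and the AIC (*SMC1*, *SMC3* and *SYN3*, background 18.1%) and 4 between the synergid cells and the AIC (*SMC1*, *SYN2*, *SYN3* and *SMC2B*, background 15%). For the mean of the 3 embryo sac cell types against the AIC there were 2 (*SMC1*, lower by 1.29 with SE 0.38, and *SYN3*, higher by 0.66 with SE 0.12, background 15.8%), and the F test over all 5 cell types gave 3 (*SMC1*, *SYN3* and *SCC2*, background 17.1%). The comparisons with the AIC share its 2 arrays. The median difference of the 10 genes between the AIC and the nucellus was 0.094, against -0.0050 for all genes, with 6 above and 4 below 0. For the egg, central and synergid cells, each with 1 array, the fit took the spread from the AIC and nucellus pairs, and their p values carry no replicate check of their own. The study calls samples of a cell type independent, each a pool of sections, but does not state whether they came from separate plants, so p values measure the spread between these samples only.

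Counted by size alone, 1 of 10 genes was higher by at least 1 on the log2 scale in the AIC than in the nucellus (*SMC1*, background 2.45%) and 0 were lower (background 2.92%). Relative to the AIC, 2 were higher in the egg cell (*SMC4* and *SCC2*, background 5.35%) and 1 was lower (*SYN1/REC8*, background 4.27%). The central cell had 1 higher (*SYN3*, background 4.08%) and 2 lower (*SMC1* and *SYN1/REC8*, background 8.82%). The synergid cells had 1 higher (*SMC2B*, background 4.18%) and 1 lower (*SMC1*, background 6.39%). For the mean of the embryo sac cell types 0 were higher (background 1.71%) and 1 was lower (*SMC1*, background 5.23%). These backgrounds cover all genes. Of the 6612 genes that exceeded the cutoff on 2 or more arrays, 1756 were lower by at least 1 in the central cell. In the synergid cells 1210 were, and for the mean 1028. Higher by as much were 292, 396 and 204. The lower value of *SYN1/REC8* in the egg and central cells, with differences of -1.47 and -1.35, had 95% intervals of -4.82 to 1.89 and -4.71 to 2.00, which include 0. Without AIC array 1 they were -0.39 and -0.28, so that *SYN1/REC8* enters both counts through that array.

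The array with the highest value differed among the 10 genes. It was the egg cell array for 4 (*SMC1*, *SYN4*, *SMC4* and *SCC2*), where 12.8% of all genes had their highest value. The central cell array (24.7% of all genes) held the highest value of *SMC3* and *SYN3*, and the synergid cell array (18.5%) that of *SYN2* and *SMC2B*. *SYN1/REC8* was highest on AIC array 1 (8.55%) and *SMC2A* on nucellus array 2 (12.5%). By the mean of each cell type, the egg cell led for 5 genes (with *SMC2A*), the synergid cells for 3 (with *SYN1/REC8*) and the central cell for 2. Over the 7 arrays, which share the shift of the central and synergid cell arrays, *SMC4* was most like *SCC2* (Pearson's r = 0.61) and *SMC2B* most like *SYN2* (r = 0.76). *SMC1* was most like *SYN4* (r = 0.85). *SYN2* and *SYN4* were below the cutoff throughout, and *SYN1/REC8* had no r above 0.16 with any of the others.

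Further genes of the same processes came from lists of other cohesin genes, non-SMC subunits of condensin, and the related SMC5/6 complex, which acts in DNA repair. The cohesin list held the core subunit *SCC3* beside partners and regulators. Of 29 listed genes 24 had values, and limma called 0 of them, and 0% of all genes, in any comparison at an adjusted p of 0.05. At an unadjusted p of 0.05 it picked 1 of 24 between the AIC and the nucellus (background 3.82%). Against the AIC it picked 1 of 24 for the egg cell (background 10%), 2 for the central cell (background 18.1%), 4 for the synergid cells (background 15%) and 2 for the embryo sac mean (background 15.8%), and the F test picked 2 (background 17.1%). Of 12 genes of the cohesin list, 3 were above the cutoff on at least 1 array (background 39.9%) and 0 on both AIC arrays (background 21.7%). Their median difference between the AIC and the nucellus was -0.14, with 4 above and 8 below 0. Of 6 genes for non-SMC condensin subunits, 4 were above it on at least 1 array, and the median difference between the AIC and the nucellus was -0.21, with 1 above and 5 below 0. *AT5G37630* was the only listed gene above the cutoff on all 7 arrays (background 9.55%). It had values of 6.09 and 5.71 in the AIC, 5.98 and 6.13 in the nucellus, 6.51 in the egg cell, 5.99 in the central cell and 6.71 in the synergid cells, so that the embryo sac cells lay between the replicates or above them. Its difference between the AIC and the nucellus was -0.16 (SE 0.19, limma adjusted p = 0.938). Of 6 genes for the SMC5/6 complex, *AT3G15150* alone was above the cutoff on at least 1 array, and their median difference was 0.18, with 5 above and 1 below 0. It was above it on 5 arrays including both of the AIC, with values of 5.55 and 5.46 in the AIC, 5.55 and 4.91 in the nucellus, 6.16 in the egg cell, 5.55 in the central cell and 6.01 in the synergid cells. The difference between the AIC and the nucellus was 0.27 (SE 0.27, limma adjusted p = 0.938).

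**Figure D4:**
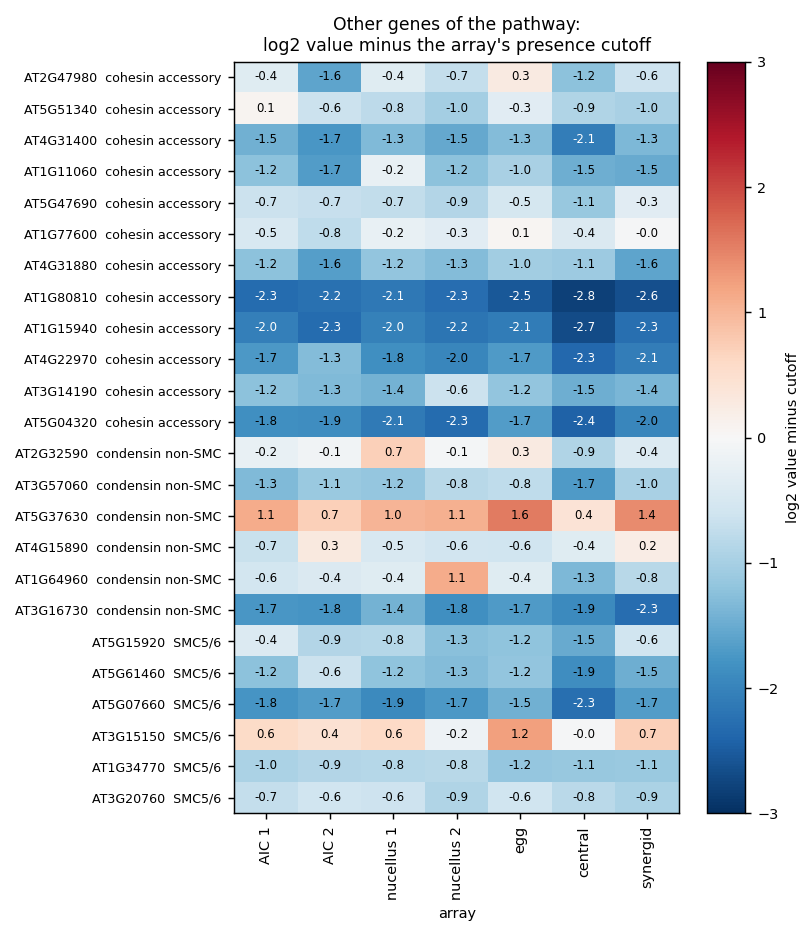
Log2 value minus the presence cutoff of the array (colour and number) for the 24 further genes of the pathway with values (y axis, by list) on the 7 arrays (x axis). *AT5G37630* is the only gene above the cutoff (positive) on all 7 arrays.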

How the data were processed

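Expression was measured on 7 ATH1 arrays, 2 of the AIC, 2 of the nucellus and 1 each of the egg, central and synergid cells. The authors deposited log2 values, 1 for each of 21428 *Arabidopsis* genes and 64 control features on every array, with ATH1 probes grouped by gene (brainarray TAIRG annotation, version 14). The methods name RMA for heatmap values, but no source used here states how the deposited values were normalized. The presence cutoff of each array was the value that best separated P calls from the others in the first 1999 features of the study's call table (midpoint of ties). It misplaced 0 of these features on each array, which set it, and was applied to all genes. None of the 10 genes is among these features.

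limma 3.58.1 (lmFit and eBayes, R 4.3.3) was fitted to all 21428 genes and 7 arrays with 1 mean per cell type, 2 residual degrees of freedom, and Benjamini-Hochberg adjustment at 0.05. The fit was also run on simulated data with known changes between the AIC and the nucellus. The outcome is not given here, so the power of the fit is not stated. The control features were left out. Tables and figures used Python 3.11.15, pandas 2.3.3, numpy 2.4.6 and matplotlib 3.10.9. Alternatives were other cutoffs, quantile normalization, a filter that kept genes exceeding the cutoff on at least 2 arrays, a trended prior, the replicate number as a block, the 4 AIC and nucellus arrays alone, and each of these left out in turn. Members and lists were chosen with earlier results of these data known. Every member was described, and of the other lists the genes called by limma, above the cutoff on all 7 arrays, or above it on both AIC or both nucellus arrays. The number of arrays limits the precision.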

Additional observations from a re-analysis of the deposited data

How the results depend on the processing

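limma called 0 of the 10 genes in all 49 combinations of a comparison and an alternative, in a design with 1 to 2 residual degrees of freedom, so this is no evidence of stability. Over all genes, quantile normalization called 3 of 21428 between the egg cell and the AIC and 0 in the other comparisons. The filter, the trended prior and the block called 0 genes in every comparison. The lowest adjusted p of any of the 10 genes in limma was 0.0901 under quantile normalization, and under the other alternatives it was between 0.150 and 0.938. Of 380 alternatives computed for 50 log2 differences, 360 kept the sign. Many of these could not change it, because they return the same difference. This holds for the filter, the trended prior and the fit to the AIC and nucellus arrays alone. It also holds for the block between the AIC and the nucellus, and for embryo sac differences from the AIC with a nucellus array left out. The count of 360 is therefore no measure of stability. With an array left out, *SMC1* between the AIC and the nucellus ranged from 1.62 to 2.63 and *SCC2* between the egg cell and the AIC from 1.22 to 1.73.

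Differences that changed sign with an array left out were those between the AIC and the nucellus of *SYN1/REC8* (-0.48 to 1.67), *SMC4* (-1.19 to 0.39), *SMC2A* (-0.47 to 0.62) and *SMC2B* (-0.35 to 0.078). Against the AIC, they were *SMC2B* (-0.010 to 0.41) and *SYN3* (-0.12 to 0.033) in the egg cell, *SMC4* (-0.31 to 0.63) in the central cell, *SYN1/REC8* (-0.96 to 1.195) and *SCC2* (-0.43 to 0.076) in the synergid cells, and *SYN1/REC8* (-1.98 to 0.18) and *SMC2A* (-0.10 to 0.057) for the mean of the 3 embryo sac cell types. With the replicate number as a block, which changed no call, 6 differences from the AIC changed sign: *SYN3* in the egg cell (0.029), *SMC4* (-0.0025) and *SMC2A* (0.058) in the central cell, *SYN1/REC8* (-0.62) and *SMC2A* (0.12) in the synergid cells, and *SMC2A* for the mean (0.29). No source states that equal replicate numbers belong together, and the deviations of same-numbered arrays had an r of 0.031 across genes.

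Of 96 alternatives for the counts above the cutoff, 73 stayed within 1.5 times. At a p value of 0.01, nucellus array 2 (background 20.6%) and the central cell array (background 9.77%) had 0. The synergid cell array had 1 (background 15.3%), and at least 1 nucellus array had 1. At 0.05, AIC array 1 had 5 (background 34.1%) and the central cell array had 2 (background 22.6%). Nucellus arrays 1 and 2 had 3 each (background 34.2% and 32.0%). Both AIC arrays had 3, both nucellus arrays 1, at least 1 nucellus array 5, and all 7 arrays 1. The share of all genes for such combinations of arrays is not given at these cutoffs. It is also not given for the top 25% or without the central and synergid cell arrays. The counts for combinations of arrays in this paragraph are therefore no result about the 10 genes. With the top 25% of genes on every array, nucellus array 2 and the central cell array had 2 and both nucellus arrays 1. With an array left out, the counts for the AIC ranged from 2 to 3 and those for the nucellus were 1. These repeat the counts of the single array that remained and are no further check. With the cutoff at the lowest value called P, chosen after seeing the data, the central cell array had 0. The number above the cutoff on at least 1 array was 5 without the central and synergid cell arrays, also chosen after seeing the data. The causes were not tested.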
